A study of Homo sapiens with 4 samples.

Results

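Olfactory receptor genes were followed in a list of PML peaks from MDA-MB-231, a cultured human line of triple-negative breast cancer. The peaks taken were those whose nearest gene was protein-coding and had a symbol of OR, digits, capital letters and digits. They numbered 254 of 68937 peaks and named 135 receptor genes, out of 13948 protein-coding genes named anywhere in the list. The groups behind the list were 2 PML ChIP libraries, made with a Bethyl antibody, and 2 input libraries of cross-linked cells of this line, for which the labels name no treatment, and the submitters merged the reads of the duplicates. There is therefore no replicate error for any value, no test between groups, and the read depth behind a peak is unknown. All intervals cover counting error only. Receptor peaks are set beside the 49363 peaks whose nearest gene was another protein-coding gene, and receptor genes beside the 13813 other protein-coding genes.

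Olfactory receptors are G protein-coupled receptors that bind odorants on the sensory neurons of the nose. Most have a single coding exon, lie in clusters of close copies, and have promoters poor in CG dinucleotides. Each olfactory neuron keeps a single receptor gene active and holds the others in heterochromatin, and in most other tissues the clusters are silent. Class I receptors are the older class, shared with fish, and class II receptors make up most of the mammalian repertoire. PML is the scaffold protein of PML nuclear bodies. Peaks are given with the authors' score, a whole number that serves here only to rank peaks within this list, in which it starts at 13. A distance runs from the peak centre to the nearest transcription start site (TSS), negative when upstream. Coordinates are hg38.

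Few receptor windows at a RefSeq gene start carried a peak. Over the promoter windows of RefSeq, which run from 250 bases before to 50 after a gene start on GRCh38.p14, a peak of any gene overlapped the window of 8 of 312 receptor genes (2.56%, exact 95% interval 1.11 to 4.99%), against 9086 of 15531 other protein-coding genes (58.5%). Over both together the share was 57.4%. A RefSeq gene start can be the start codon instead of a promoter. In the OR11L1 window below, an ATG begins at the gene start. How many receptor windows lie at coding starts was not measured. The 8 genes were OR1F1, with 2 start sites, OR1R1, OR2L13, OR2T35, OR2V1, OR3A2, OR5B2 and OR11L1. Of the windows with a peak, 4 that are CG-rich and 2 that are CG-poor are shown for the contrast in CG count. They are RefSeq sequences, 5′ to 3′ on the gene's strand, and capitals mark every CG dinucleotide.
OR1F1, upstream start, chr16:3187954-3188253, plus strand: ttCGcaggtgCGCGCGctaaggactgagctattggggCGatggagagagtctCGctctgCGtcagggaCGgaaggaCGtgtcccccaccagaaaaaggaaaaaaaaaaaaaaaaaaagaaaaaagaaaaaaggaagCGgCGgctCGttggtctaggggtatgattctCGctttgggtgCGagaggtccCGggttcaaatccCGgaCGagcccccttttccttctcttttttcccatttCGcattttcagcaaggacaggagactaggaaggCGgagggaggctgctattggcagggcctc
OR1F1, downstream start, chr16:3188872-3189171, plus strand: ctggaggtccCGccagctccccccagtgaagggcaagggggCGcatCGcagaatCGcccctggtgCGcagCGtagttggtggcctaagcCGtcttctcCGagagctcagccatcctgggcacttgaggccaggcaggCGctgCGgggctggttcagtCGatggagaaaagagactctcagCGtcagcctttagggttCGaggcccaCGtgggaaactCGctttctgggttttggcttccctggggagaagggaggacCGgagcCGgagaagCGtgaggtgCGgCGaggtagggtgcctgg
OR2L13, chr1:247936927-247937226, plus strand: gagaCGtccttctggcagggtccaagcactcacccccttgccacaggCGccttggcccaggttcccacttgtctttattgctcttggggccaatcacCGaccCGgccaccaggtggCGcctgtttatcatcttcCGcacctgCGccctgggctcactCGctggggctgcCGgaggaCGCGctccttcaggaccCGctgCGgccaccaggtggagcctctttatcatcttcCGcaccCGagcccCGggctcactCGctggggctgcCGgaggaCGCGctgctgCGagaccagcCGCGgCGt
OR3A2, chr17:3386259-3386558, minus strand: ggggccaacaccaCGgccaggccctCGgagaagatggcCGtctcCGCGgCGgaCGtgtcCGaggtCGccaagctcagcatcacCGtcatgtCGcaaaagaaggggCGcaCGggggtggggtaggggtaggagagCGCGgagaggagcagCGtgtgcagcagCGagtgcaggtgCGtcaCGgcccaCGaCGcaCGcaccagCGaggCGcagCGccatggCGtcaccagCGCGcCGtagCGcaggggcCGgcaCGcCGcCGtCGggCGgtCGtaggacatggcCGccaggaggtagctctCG
OR5B2, chr11:58428072-58428371, minus strand: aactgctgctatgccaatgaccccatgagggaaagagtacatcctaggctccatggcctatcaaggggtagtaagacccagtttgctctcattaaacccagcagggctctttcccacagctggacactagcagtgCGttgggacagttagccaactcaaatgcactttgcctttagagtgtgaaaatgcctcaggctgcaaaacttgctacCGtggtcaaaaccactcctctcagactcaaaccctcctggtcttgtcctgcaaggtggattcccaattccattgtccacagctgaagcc
OR11L1, chr1:247841847-247842146, minus strand: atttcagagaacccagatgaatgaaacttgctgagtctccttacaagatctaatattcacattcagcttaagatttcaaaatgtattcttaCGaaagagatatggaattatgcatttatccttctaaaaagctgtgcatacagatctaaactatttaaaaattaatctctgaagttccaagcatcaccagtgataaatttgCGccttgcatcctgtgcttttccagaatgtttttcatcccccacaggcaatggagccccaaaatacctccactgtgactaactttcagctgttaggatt

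The OR1F1 windows held 19 and 20 CG dinucleotides, that of OR2L13 held 24 and that of OR3A2 held 39. The windows of OR5B2 and OR11L1 held 2 each. Over all 324 receptor windows the median was 1 CG, against a median of 21 over all 22199 protein-coding windows. GC content had a median of 37.7% in receptor windows and 62.3% in all windows.

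The peaks over these windows had scores between 17 and 96. OR1F1 had a peak of score 36 that covered 195 bases of its upstream window and a peak of score 48 that covered all 300 bases of its downstream window. A further peak of score 75, labelled CpG island, lay 5291 bp upstream. Genes that do not code for protein, such as tRNA genes, were not looked for in the OR1F1 windows. The peaks of score 36 and 48 over these windows are therefore not assigned to a receptor promoter. The OR2L13 peak, with score 29 and also labelled CpG island, covered 64 bases. The OR3A2 window was touched by a peak of score 17 over 116 bases, which the table gives to OR1E1. The same peak reached 15 bases into the window of OR1R1, which held 10 CG. The OR3A2 window lies a short way downstream of the OR1R1 window (3385680 to 3385979, plus strand), on the other strand. Whether its CG dinucleotides belong to the OR1R1 gene was not tested, so its CG count is not read as that of an OR3A2 promoter. OR2V1, with 5 CG, had a peak of score 32 over its whole window, but the table places this peak 5647 bp upstream of the TSS it uses for OR2V1. The OR5B2 peak, score 26, also covered the whole window, and the table names it an L1PB4 element 4896 bp upstream of its own OR5B2 TSS, while that of OR11L1, score 31, covered only 25 bases at its downstream end. OR2T35, with 2 CG, had the highest score, 96, over 243 bases, and the table gives that peak to OR2T27.

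Peak overlap rose with the CG count in receptor windows, though with few windows at high counts, as in other windows. With 0 or 1 CG, none of 186 receptor windows had a peak (interval up to 1.96%), against 23 of 1156 other windows (1.99%). With 2 to 4 CG, 3 of 117 receptor windows had one (2.56%, interval 0.532 to 7.31%), against 4.67% of 2572 others. With 5 to 9 CG the counts were 1 of 15 receptor windows (6.67%) and 369 of 2601 others (14.2%). With 10 or more CG, 5 of 6 receptor windows (83.3%, interval 35.9 to 99.6%) and 69.9% of 15546 others had a peak. The shares of the other windows lay within the intervals of the receptor windows, except at 0 or 1 CG, where 1.99% stood just above the upper bound of 1.96%. Genes with several start sites enter several times. Among the 5 receptor windows with a peak at 10 or more CG, 2 belong to OR1F1, and those of OR1R1 and OR3A2 share 1 peak. These windows are not independent, which the interval does not take into account.

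**Figure D1:**
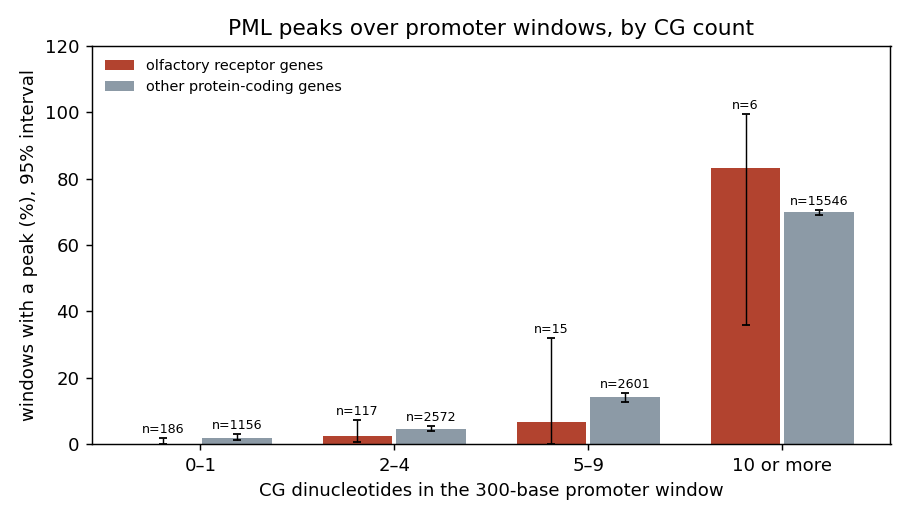
Share of 300-base promoter windows with a peak (vertical axis, %) by number of CG dinucleotides (horizontal axis), for olfactory receptor genes and other protein-coding genes; bars are shares, lines exact 95% intervals, and n is the number of windows. Receptor windows with a peak rise to 5 of 6 at 10 or more CG, where the windows are not independent. In all, 186 of the 324 receptor windows hold 0 or 1 CG.

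Motifs were counted on both strands of the same windows. The TATA box letters TATAAA occurred in 112 of 324 receptor windows (34.6%), against 9.47% of all windows. The homeodomain core TAATTA, bound by factors such as LHX2 that act in receptor choice in mice, occurred in 72 (22.2%), against 3.39%. TATAAA and TAATTA hold only A and T, and receptor windows were poorer in GC (median 37.7% against 62.3%). The shares were not corrected for base composition. The EBF motif, the site of another group of factors of olfactory neurons, occurred in 4 (1.23%), against 1.38%. The E-box CACGTG, which holds a CG itself, occurred in 6 (1.85%), against 8.34%. ACTACA, the first bases of the RONIN motif, occurred in 51 (15.7%), against 7.93%, and the AP-1 letters TGAGTCA in 14 (4.32%), against 4.01%. Of the 9 receptor windows with a peak, 1 held TATAAA, 1 ACTACA, 1 CACGTG, 1 the EBF motif and none TAATTA.

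Within 1000 bp of the TSS as the deposited table assigns it, 43 of 135 receptor genes had a peak (31.9%, exact interval 24.1 to 40.4%), against 10915 of 13813 other genes (79.0%) and 78.6% of all protein-coding genes named in the list. These 43 genes held 46 peaks, 18.1% of the receptor peaks, while 24.4% of all peaks next to protein-coding genes lay that close. Genes that are the nearest gene of no peak are left out of this count. Among all 390 receptor genes that RefSeq lists as protein-coding, 40 had such a peak (10.3%), against 54.0% of other RefSeq genes and 53.2% of all.

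Most of these peaks lay inside the receptor genes as the table places their starts. Of the 46, 41 were centred downstream of the TSS (89.1%, interval 76.4 to 96.4%), against 69.7% of the 12060 peaks this close to other genes. The table placed 39 of the 46 in the exon of a single-exon transcript (84.8%), against 180 of 12060 (1.49%). That label depends on gene structure, and most receptors have a single coding exon, so this contrast is largely set in advance. The table placed 5 in the promoter class, at OR1F1 (2 peaks), OR2B11, OR7C1 and OR10A3, which is 10.9%, against 56.1% for other genes. Receptor peaks were centred at a median of 443.5 bp downstream, against 111 bp. The start that the table uses for a receptor can be the start codon, as at OR11L1. Distances at receptors and at other genes may thus run from different kinds of site, and how often was not measured. Between 250 and 500 bp downstream there were 14 receptor peaks and between 500 and 750 bp there were 19. Only 7 lay in the first 250 bp, where peaks of other genes were most frequent (4989 of 14003 within 2000 bp). The farthest inside the 1000 bp limit was OR5AU1 at 805 bp, and the next receptor peak downstream was that of OR9Q1 at 1500 bp.

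**Figure D2:**
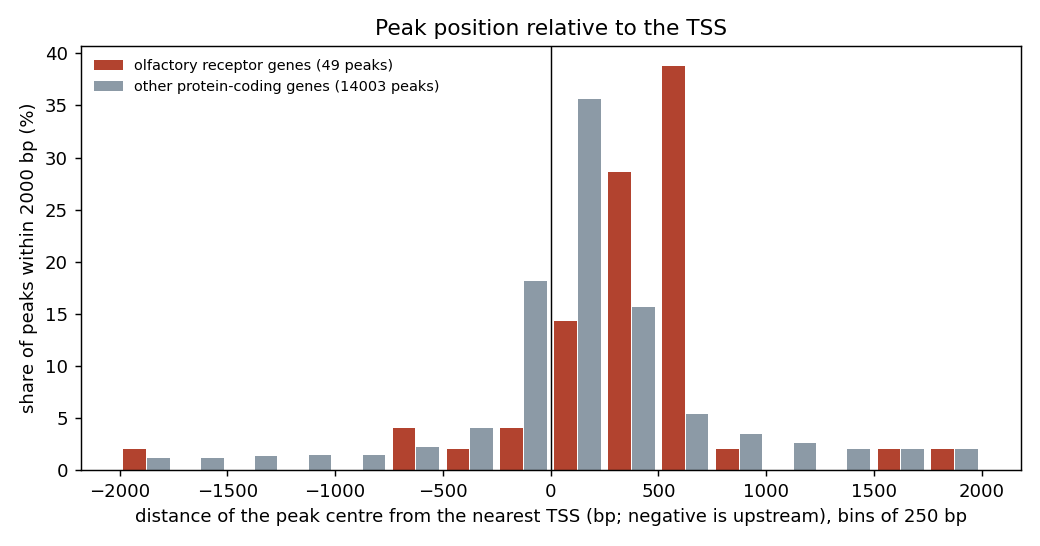
Share of the peaks within 2000 bp of a TSS (vertical axis, %) in bins of 250 bp of signed distance (horizontal axis), for peaks next to olfactory receptor genes and to other protein-coding genes. Receptor peaks are most frequent from 500 to 750 bp downstream (19 of 49), other peaks in the first 250 bp downstream (4989 of 14003).

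Counts made without the table's gene assignment, partly over the same peaks, gave the same picture. RefSeq lists 180 receptor genes of at most 1500 bp, whose median length of 951 bp is close to that of a receptor coding sequence. Of these, 19 had a peak anywhere over the gene (10.6%, interval 6.48 to 16.0%), against 238 of 705 other protein-coding genes of that length (33.8%). All 19 peaks were centred inside the receptor gene, and 0 lay in the windows of the same length on its left or on its right. For the other short genes 176 peaks were centred inside and 115 in the same flanking windows. Coding exons of receptors are close copies of one another, so the placement of reads among near-identical genes is uncertain.

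The receptor peaks near a TSS had low scores. Their median was 31 with a range of 14 to 75, against a median of 61 for peaks this close to other genes, and their median width was 428.5 bp against 767 bp. None of the 5000 highest-scoring peaks lay within 1000 bp of a receptor TSS (0 of 135 genes, interval up to 2.70%), while 3261 other genes had one there. Of the peaks in single-exon transcripts, the 39 at receptors had a median score of 31 and a highest score of 75, against a median of 47 and a highest score of 393 for 270 peaks at other genes.

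The highest-scoring peak near a receptor TSS was that of OR2V2, on chromosome 5 from 181154954 to 181155970, with score 75 and its centre 519 bp into the single exon. OR2T33 followed with score 74, on chromosome 1 from 248273003 to 248273621, 502 bp into its exon. OR6J1 had 55 on chromosome 14 from 22634229 to 22634841, and OR2A5 had 54 on chromosome 7 from 144050821 to 144051294. All 4 of these peaks were in single-exon transcripts. OR1F1, at 48, was the highest with a peak before the TSS, its centre 73 bp upstream.

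Below these, OR2T34 had score 48 and OR2Z1 had 46. OR2S2, OR4S1 and OR9Q2 had 42 each, and OR1D5, OR4K14 and OR7C1 had 41 each. The OR7C1 peak of 41 lay 724 bp upstream, and a second peak of score 17 lay 612 bp into its exon. OR4K13 had 37. OR2B11 had a peak of 36 placed 463 bp upstream and a peak of 31 placed 578 bp into its exon. The lowest was OR6V1, with score 14. OR2B11, OR7C1 and OR1F1 were the 3 receptor genes with 2 peaks within 1000 bp.

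RefSeq places 387 receptor genes on the chromosomes of the list, and 123 of them were the nearest gene of a peak (31.8%), against 68.1% of other protein-coding genes and 67.4% of all. Of 14 receptors with a known ligand or described outside the nose, 5 were the nearest gene of a peak, a share near that of the receptors as a whole, OR7C1 among them. OR1D2, which responds to the floral odorant bourgeonal, had a peak of score 26 placed 197 bp into its exon. OR2W3 had one of 26 at 717 bp into its exon. OR5AN1, a receptor for musk odorants, had peaks of 22 and 16 at 12940 and 8880 bp upstream, both labelled LINE. OR4M1 had a single peak of 62 at 8683 bp upstream, in an LTR27E element. OR51E1, OR51E2 (a receptor known from prostate), OR51B4, OR7D4 (a receptor for androstenone), OR2H1, OR2H2, OR2C3, OR2T6 and OR10H1 were the nearest gene of no peak in the list.

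Most receptor peaks were distal. There were 72 between 1000 and 10000 bp of a TSS (28.3%, against 22.8% of other peaks), 124 between 10000 and 100000 bp (48.8% against 42.8%) and 12 farther away (4.72% against 9.98%). The table called 184 of the 254 intergenic (72.4%, interval 66.5 to 77.8%), against 29.3% of other peaks. Introns held 19 (7.48%), against 41.1%. Between 1000 and 10000 bp the receptor peaks lay on both sides, 33 downstream and 39 upstream. Some of the distal peaks lay in genes that are not receptors. TCAF2 introns held 4 that the table gives to OR9A2 and OR6V1, and RAP1GAP2 held 3, in an exon, an intron and the 3′ UTR, that it gives to OR1D5.

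Away from the TSS, scores at receptors were like those elsewhere in the list. The medians were 33 against 32 between 1000 and 10000 bp, 31 against 31 between 10000 and 100000 bp, and 30.5 against 31 beyond. Over all distances the receptor median was 31 (distribution-free 95% interval 30 to 34), against 36 for other peaks. Scores at or above 100 were reached by 5 receptor peaks, a count for which no share over other peaks is given. At or above 34, the median of the whole list, were 114 of the 254.

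**Figure D3:**
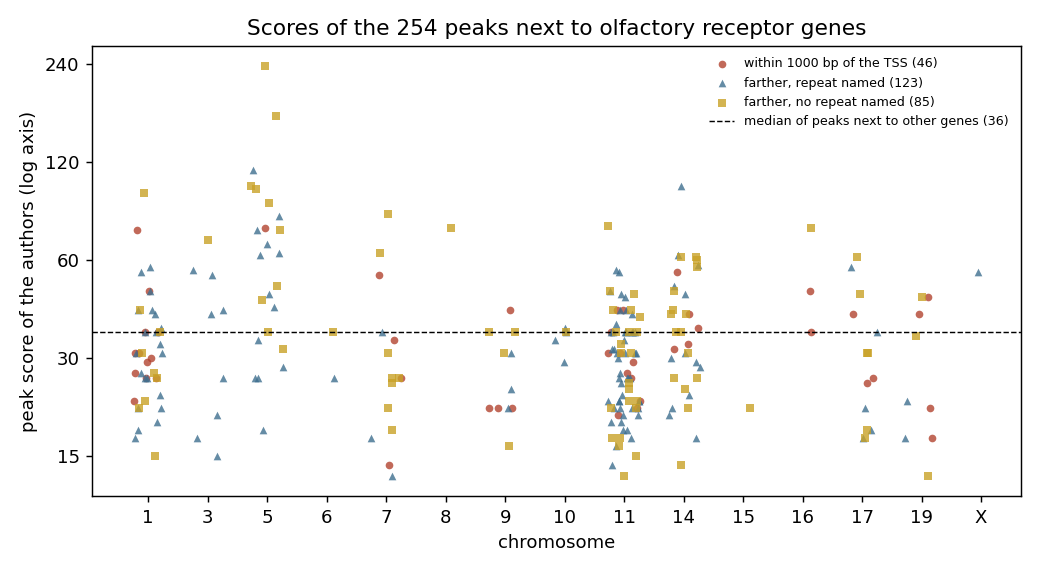
Score of each of the 254 peaks next to an olfactory receptor gene (vertical log axis, the authors' score) by chromosome (horizontal axis); colours and shapes separate the 46 peaks within 1000 bp of the TSS from farther peaks with and without a named repeat, and the dashed line is the median of peaks next to other genes, 36. Chromosome 5 holds the highest scores, and points are spread sideways only for legibility.

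The strongest peaks lay in a short stretch near the end of chromosome 5. OR2V1, OR2V2 and OR2Y1 shared 24 peaks there between 180719133 and 181171019, with a median score of 62.5. OR2V1 had the highest receptor score of the list, 236, in a CpG island from 181101149 to 181101517 placed 23971 bp downstream of its TSS. OR2V2 followed with 166 from 181169479 to 181171019, 15306 bp downstream, and OR2Y1 with 113 in an L1M2a element 13990 bp upstream. The same stretch held 47 peaks of other genes, with a median score of 36, and 157 peaks per Mb in all, against a median of 10 over 2976 bins of 1 Mb. OR2V1 and OR2V2 had 10 peaks each and OR2Y1 had 4. Without chromosome 5 the median score of receptor peaks was 31 as well.

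Elsewhere, high scores were reached by 1 peak of a gene, although OR4D9 and OR1F1 each had 3 peaks in all. OR4L1 had 101 on chromosome 14 from 20048404 to 20048786, in an L1M4b element 11450 bp upstream. OR2T27 had 96 on chromosome 1 from 248645286 to 248645689, OR2A2 had 83 on chromosome 7 at 9084 bp downstream, and OR4D9 had 76 on chromosome 11 at 35974 bp downstream. OR1F1 had 75 in a CpG island, and OR4F21, near the end of chromosome 8, had 75 at 94037 bp downstream. The last belongs to a family of nearly identical receptor copies near chromosome ends, so its placement is uncertain.

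Repeats were named for 123 of the 254 receptor peaks (48.4%, interval 42.1 to 54.8%), against 22.0% of peaks next to other genes. LINE elements made up 57 (22.4%, against 7.49%) and LTR elements 46 (18.1%, against 7.85%). SVA retroposons made up 8 (3.15% against 1.04%), SINEs 8 (3.15% against 3.66%), DNA transposons 2 and simple repeats 2. Of the LINE peaks, 53 were L1 (20.9%, against 4.76%) and 4 were the older L2 (1.57% against 2.56%). Primate L1PA elements, the group that holds the youngest L1 copies, were named for 25 receptor peaks (9.84%, against 2.46%), and the older L1M group for 17 (6.69% against 1.51%).

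Among LTR peaks, 25 were of the ERV1 family (9.84% against 3.49%), 9 ERVL, 9 ERVL-MaLR and 3 ERVK. LTR12 copies, the terminal repeats of HERV9 elements, accounted for 7 (2.76% against 1.42%), MER52A for 5 and the HERVH interior for 3. The median score of peaks with a repeat was 31 at receptors and 31 at other genes. Peaks at receptors with neither a repeat nor a CpG island had a median of 32.5, against 36. CpG islands were named for 9 receptor peaks (3.54%), against 7.54%.

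The difference in repeats lay between 1000 and 100000 bp of the TSS. From 1000 to 10000 bp, 61.1% of receptor peaks carried a repeat (interval 48.9 to 72.4%), against 17.2% of other peaks. From 10000 to 100000 bp the shares were 58.9% (interval 49.7 to 67.6%) and 30.1%. Beyond 100000 bp, 6 of 12 receptor peaks (50%, interval 21.1 to 78.9%) and 50.9% of other peaks carried one. Within 1000 bp the table named a repeat for none of 46 receptor peaks (interval up to 7.71%) and for 0.721% of others; there it mostly prints the exon or promoter label in the same column. How much repeat sequence lies around the receptor genes was not measured here.

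**Figure D4:**
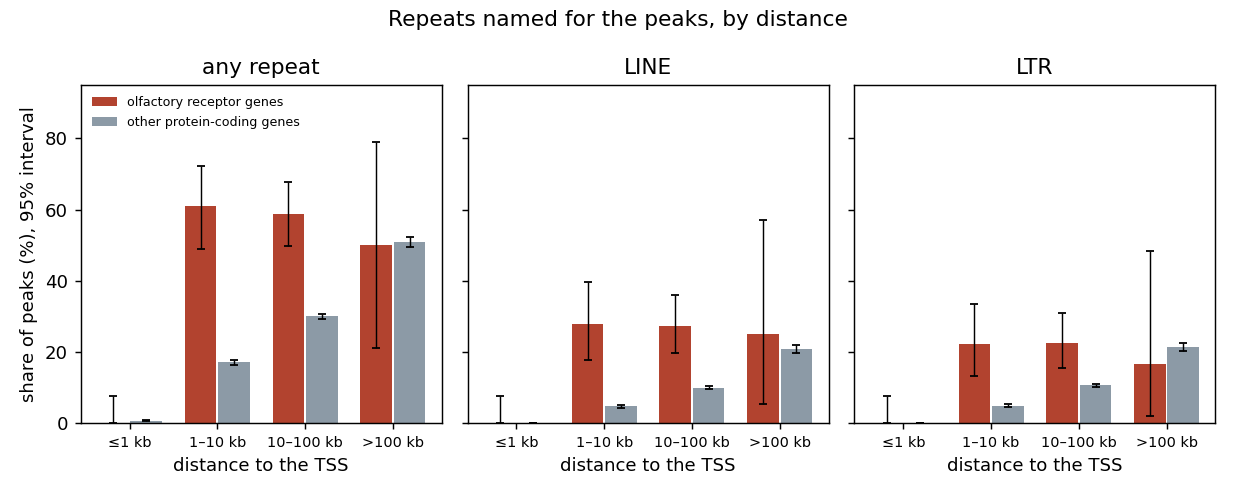
Share of peaks with any named repeat, a LINE or an LTR element (vertical axis, %, with exact 95% intervals) by distance from the TSS (horizontal axis), for olfactory receptor genes and other protein-coding genes. Between 1 and 10 kb, 61.1% of receptor peaks and 17.2% of other peaks carry a repeat, and beyond 100 kb the shares are 50% and 50.9%.

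Receptor peaks lay on 15 chromosomes, most of them in clusters. Joining peaks at gaps of at most 1000000 bp gave 17 clusters of 3 or more peaks, which held 244 of the 254. Chromosome 11 had 83 peaks at 44 genes, chromosome 1 had 42 at 29, chromosome 14 had 34 at 19, chromosome 5 had 24 at 3 and chromosome 7 had 15 at 10. The largest cluster, with 57 peaks at 33 genes, ran on chromosome 11 from 54627885 to 59729407, and 17 of its peaks were LINE and 14 LTR. The cluster on chromosome 1 from 247451192 to 248671704 had 35 peaks at 22 genes, of which 10 genes had a peak within 1000 bp of the TSS. That on chromosome 14 from 19678120 to 22634841 had 32 peaks at 18 genes, 5 of them with such a peak.

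Whole groups of receptor genes had no peak. RefSeq places 350 receptor genes in 17 groups of 5 or more. No peak of any gene lay in 3 of them, with 45 receptors in all: the 22 genes from OR6X1 to OR8A1 on chromosome 11 (123753580 to 124571374), the 15 from OR9K2 to OR10P1 on chromosome 12 (55126406 to 55637833) and the 8 from OR13F1 to OR13D1 on chromosome 9 (104504263 to 104695462). Of 2976 bins of 1 Mb over the genome, 10.4% held no peak. The 3 groups are shorter than a bin (0.818, 0.511 and 0.191 Mb), so this share is not a background of matched length. In the largest group, 67 genes from OR52B4 to OR10A3 on chromosome 11 (4367263 to 7941708), 3 genes were the nearest of a peak. That stretch had 21 peaks, or 5.88 per Mb, against 32.7 per Mb in the 43-gene group on chromosome 1. Over the 2976 bins of 1 Mb the median was 10 peaks, with quartiles of 3 and 28.

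**Figure D5:**
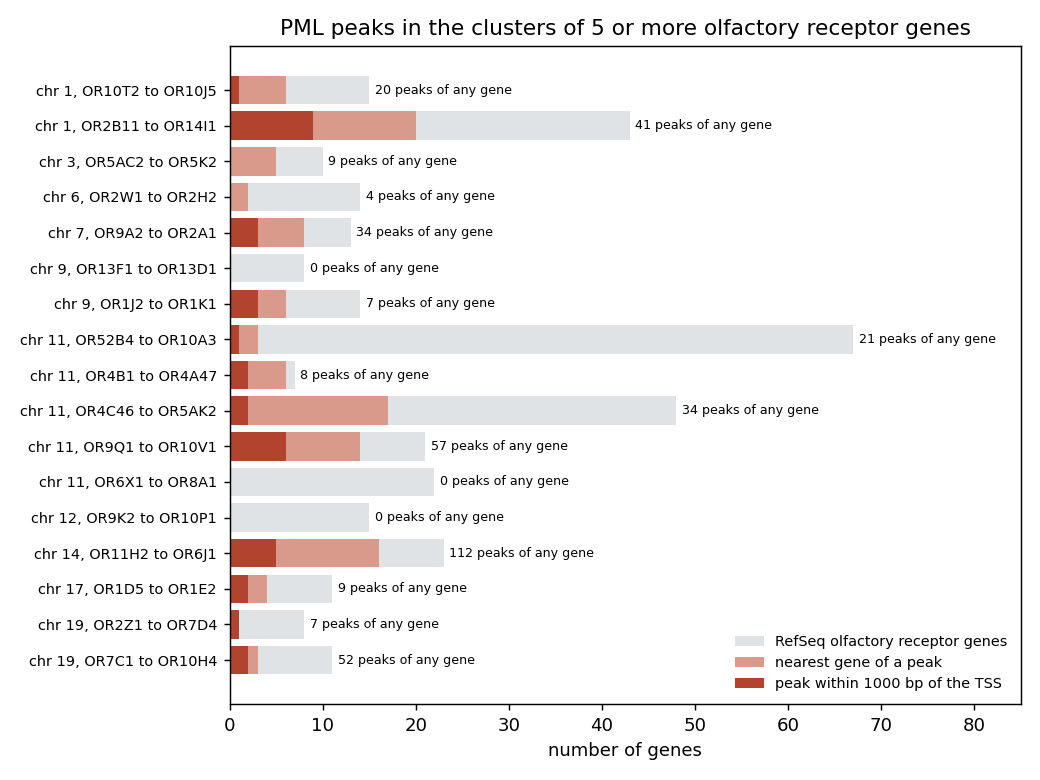
Number of olfactory receptor genes (horizontal axis) in each group of 5 or more RefSeq receptor genes (vertical axis, by chromosome, first and last gene), with the genes that are nearest to a peak and those with a peak within 1000 bp of the TSS drawn over the total. The groups OR6X1 to OR8A1, OR9K2 to OR10P1 and OR13F1 to OR13D1 have 0 peaks of any gene, and the 67-gene group OR52B4 to OR10A3 has 21.

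Class I receptors were almost without peaks. Of 55 class I genes in RefSeq, all in the 67-gene group on chromosome 11, 1 was the nearest gene of a peak (1.82%, interval 0.046 to 9.72%), against 122 of 332 class II genes (36.7%, interval 31.5 to 42.2%) and 31.8% of both classes together. Of the 12 class II genes in the same 67-gene group, 2 were the nearest gene of a peak, OR5P2 and OR10A3 (16.7%, interval 2.09 to 48.4%), so class and place cannot be told apart here. The class I gene that was nearest to a peak, OR52B4, had peaks of score 14, 20 and 21. They lay at 50917 and 49189 bp downstream, both in HERVH interiors, and 6491 bp upstream. No class I gene had a peak within 1000 bp of the TSS. A peak lay over 0 of 55 class I genes, 55 of 332 class II genes and 55 of 387 genes of both classes. Among genes of at most 1500 bp, 10.6% of receptor genes and 33.8% of other protein-coding genes had a peak over the gene. Other genes in the stretch of the 67-gene group had promoter peaks in 10 of 33 cases. Over the 17 groups, 50 of 136 other protein-coding genes had a peak over a promoter window (36.8%, interval 28.7 to 45.5%), below the 58.5% of all genes that are not receptors. Among class II families of more than 20 genes, family 4 had 25 of 50 genes that were the nearest of a peak, family 5 had 23 of 48, family 2 had 30 of 68 and family 1 had 11 of 27. Family 10 had 10 of 35, family 6 had 7 of 30 and family 8 had 2 of 23. The class I families 51 (0 of 23), 52 (1 of 25) and 56 (0 of 7) make up the class I count above.

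Peaks were unevenly divided among the named genes. A single peak was found for 81 of the 135 genes, 2 for 26, 3 for 17 and 4 or more for 11 genes, which shared 70 peaks. These 11 were OR2V1, OR2V2, OR2Y1, OR1D5, OR9Q1, OR6S1, OR13A1, OR4A47, OR5K3, OR2B11 and OR4C13. OR9Q1 had 8 peaks, with scores from 17 to 36, of which 7 lay 18483 to 103468 bp upstream and the last, in an Alu element, 1500 bp downstream. OR1D5 had 8 with scores from 18 to 61, OR6S1 had 7 with scores from 21 to 61, and OR5K3, OR4A47 and OR13A1 had 5 each. All 4 peaks of OR4C13 lay 58849 to 153608 bp upstream, and 3 of them were labelled CpG island. The OR2T subfamily on chromosome 1 had 14 peaks at 11 genes, 5 of them with a peak in their exon. Over all named receptor genes, 31.9% had a peak within 1000 bp of the TSS. Of 15 OR2T genes in RefSeq, 10 were the nearest gene of a peak, against 31.8% of all receptor genes. RefSeq lists the remaining named gene, OR2T7, as a pseudogene.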

How the data were processed

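PML ChIP-seq of MDA-MB-231 cells was deposited as 1 annotated peak table of the merged duplicates. Per the submitters' processing notes, the tools were HOMER 4.11.1, MACS2 2.1.1.20160309, Picard 2.0.1, BWA 0.7.12 and Trimmomatic 0.36, with hg38. No source used here gives their settings. Each deposited peak carries a score, a whole number whose scale the file headers do not state. Distances (bp) are those the authors deposited.

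Members, lists and settings were chosen with earlier results of these data known, so no test was run and no list is called different from others. Counts and shares have exact Clopper-Pearson 95% intervals, checked on simulated data. All 135 receptor genes were found by gene ID in RefSeq GRCh38.p14, which lists 124 as protein-coding and 11 as pseudogenes. The TSS implied by the table lay within 2 bp of a RefSeq gene end for 145 of 254 receptor peaks. RefSeq coordinates were used for gene groups, short genes and promoter windows, without a group of 3 receptor genes, since RefSeq places the 1 of them with peaks over 1000000 bp from those peaks. Promoter windows were given for 312 receptor genes.

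Genes were named by a rule: the 15 highest scores within 1000 bp, the 10 highest at any distance, genes with 4 or more peaks, and receptors known outside the nose; genes at promoter windows and in the examples beyond these were chosen after their values were seen. Members of clusters with 3 or more peaks within 1000 bp of a TSS are given only as counts. Calculations used Python 3.11.15, numpy 2.4.6, scipy 1.17.1, pandas 2.3.3 and matplotlib 3.10.9.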

Additional observations from a re-analysis of the deposited data

How the results depend on the processing

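No paired analysis was possible because the duplicates were merged before deposit, and for the same reason no replicate could be left out. Of 27 alternatives, 16 left the receptor value within its main 95% interval, or a count of clusters within 1.5 times (22 at a gap of 500000 bp and 16 at 2000000 bp, against 17). The share of receptor genes with a peak within 1000 bp of the TSS, mostly inside the exon, was 31.9% against 79.0% of other genes. This share was 17.0% against 71.1% with a 500 bp window and 42.2% against 87.4% with a 5000 bp window. It was 2.96% against 46.7% by the promoter class, 13.3% against 64.8% with peaks at or above the median score, 0% against 23.6% with the 5000 highest-scoring peaks and 10.3% against 54.0% among all RefSeq genes. Over RefSeq promoter windows, chosen after seeing the data, it was 2.56% against 58.5%. Receptors were lower under all 11 alternatives for this share. The share of receptor peaks within the window was 9.45% at 500 bp and 26.0% at 5000 bp, against 20.9% and 36.8% of other peaks. With the highest-scoring peak of each gene the median score was 36, against 61. Among peaks over 10000 bp from a TSS the repeat share was 58.1%, against 34.0%. Leaving out chromosome 11 or, chosen after seeing the data, chromosome 5 moved no value beyond its interval. The window and the peaks kept set these shares by construction. The table gives each peak to a single gene, and depth was unknown.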

Other observations

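Of 18 genes of olfactory signal transduction and receptor transport, 12 were the nearest gene of a peak and 9 had one within 1000 bp of the TSS (50%). Over all RefSeq protein-coding genes these shares were 67.4% and 53.2%, so the list was near the background. PDE4A and GNB1, which are used in many tissues, had scores of 114 there. ADCY3, the adenylyl cyclase of olfactory cilia, had 106, ANO2, a calcium-activated chloride channel, had 99 and GNAL, the olfactory G protein subunit, had 61. CNGA2, a subunit of the olfactory cyclic nucleotide-gated channel, had 12 peaks with a highest score of 129, none within 1000 bp. OMP, RTP1 and RTP2, known from olfactory neurons, were the nearest gene of no peak. Of 18 regulators linked to receptor choice in mice, 14 had a peak within 1000 bp of the TSS (77.8%, against the same 53.2%), and ADCY3 counts in both lists. Scores were 127 at EBF4, 124 at EBF1, 118 at EMX2, 113 at LBR, 106 at KDM1A and 31 at LHX2.

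Other tissue-restricted gene families were counted in the same way. Of 94 keratin-associated protein genes, 17 were named and 11 had a peak within 1000 bp of the TSS (11.7% of the family, against 53.2% of all RefSeq genes). Among the named genes that was 64.7%, against 31.9% of named receptor genes, and all 11 of these peaks were centred downstream, with scores from 17 to 42. Over RefSeq genes of at most 1500 bp, 11 of 90 of this family had a peak over the gene (12.2%), against 33.8% of all short genes that are not olfactory receptors. Of 28 taste receptor genes, 13 were named and 3 had a peak within 1000 bp of the TSS, at TAS1R3, TAS2R43 and TAS2R5 (10.7%, against the same 53.2%). VN1R4, a vomeronasal receptor gene, had a peak of score 21 placed 129 bp downstream, and the 2 named trace amine receptor genes had none within 1000 bp.

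Peaks were also assigned to receptor pseudogenes outside the 135 genes. There were 11 with a symbol that ends in P, the nearest gene of 21 peaks with a median score of 26 and a highest score of 61. The 11 genes among the 135 that RefSeq lists as pseudogenes are not in this count. Within 1000 bp of a start lay 4 of the 21 peaks, at OR2M1P, OR6W1P, OR7E91P and OR10V2P. Which pseudogenes the table could name as a nearest gene is not known, so no share is given.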
